A study of Mus musculus with 34 samples.

Results

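The aryl hydrocarbon receptor gene Ahr, its dimerisation partner Arnt, its repressor Ahrr and the receptor-inducible genes Cyp1a1, Cyp1b1, Tiparp and Nqo1 were followed in the stromal vascular fraction (SVF) of mouse visceral fat. These 7 genes, of 32098 listed, were chosen by name. The choice was made after Cyp1a1 had been seen to be low on high fat diet at 8 weeks. The 8 week diet values of these genes are therefore given as a description, with no test. The lists of other genes below have test results at 8 weeks, but were also chosen with earlier results of these data known.

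RNA-seq had been done on 34 SVF libraries from male C57BL/6J mice. The mice were fed either the D12492 high fat diet (HFD), with 60% of its energy from fat, or a control diet (CHOW) from 6 weeks of age. The control diet was D12450B or D12450K, and the labels do not say which one each mouse received. The feeding lasted 8 weeks (4 CHOW and 6 HFD libraries), 20 weeks (5 and 6) or 34 weeks (7 and 6), and every mouse was fasted for 6 hours before it was killed. No transgene or engineered deletion is named for the mice. The SVF is the pellet of cells that sinks when fat has been digested with collagenase and centrifuged, while adipocytes rise to the top. Its red cells were then lysed. In such bulk samples, fewer cells of a type and less RNA per cell cannot be told apart. Values are TPM, a share of each library's transcripts corrected for their length, and the read depth behind them is unknown. The 8 and 20 week libraries and the 34 week libraries had been normalized in separate tables, so levels are set side by side across them but never tested.

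The receptor is a ligand-activated transcription factor that waits in the cytoplasm with HSP90 and co-chaperones such as the product of Ptges3. Once it binds a ligand, such as a dioxin, a plant indole or a tryptophan metabolite, it enters the nucleus, pairs with ARNT and binds DNA at xenobiotic response elements. Cyp1a1 and Cyp1b1, which encode oxidising enzymes that can also break down ligands, Tiparp, which encodes a mono-ADP-ribosyltransferase, and Ahrr, which encodes a competing repressor, are classical targets. The products of Tiparp and Ahrr in turn restrain the receptor. Nqo1 encodes a quinone reductase that both this receptor and NRF2 can induce.

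The pellets carried the markers of SVF cells in every group, among them macrophage, fibroblast, endothelial and mesothelial genes, of which none was at 0 in all libraries of any group. Libraries listed 13200 to 17213 genes at 1 TPM or more, and none of 15 housekeeping genes was at 0 in any library. Earlier results of these data had shown 4 libraries to stand apart. HFD replicate 3 at 8 weeks held 120024 TPM of 7 seminal vesicle genes, and HFD replicate 6 at 8 weeks held 267887 TPM of 5 red cell genes. HFD replicate 5 at 20 weeks held 12651 TPM of 8 male germ cell genes, and CHOW replicate 6 at 34 weeks held 54621 TPM of 9 adipocyte genes. Calls of the genes named here that change without these libraries are given both ways. That check kept other libraries that were rich in such genes. At 34 weeks HFD replicates 1 and 2 held 5142 and 5525 TPM of the germ cell genes. CHOW replicates 5 and 7 held 11999 and 16763 TPM of the adipocyte genes there.

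The core of a xenobiotic response element is GCGTG. It was searched on both strands of RefSeq promoter windows on GRCm38.p6, each with 250 bases before and 50 after a start, and 5 of the 6 windows matched to these genes held it, against 32.4% of all 32851 windows of the same length. The core contains a CpG, and these 6 windows had a GC content of 53.7 to 73.7%, each above the median of 52.7% over all windows. A match is a description of the letters and shows no binding. The windows of the 4 classical targets are shown so that the position of the core can be seen, with the core in capitals (CACGC where it reads on the other strand). The Cyp1a1 window is chr9:57697363-57697662, plus strand, with the core at -54 from the start, and lies inside the GENCODE gene, which begins further upstream. The Cyp1b1 window is chr17:79715012-79715311, minus strand, with the core at -76. The Tiparp window is chr3:65528197-65528496, plus strand, with the core at -170. The Ahrr window is chr13:74292282-74292581, minus strand, with cores at -107, -82 and -27.
Cyp1a1: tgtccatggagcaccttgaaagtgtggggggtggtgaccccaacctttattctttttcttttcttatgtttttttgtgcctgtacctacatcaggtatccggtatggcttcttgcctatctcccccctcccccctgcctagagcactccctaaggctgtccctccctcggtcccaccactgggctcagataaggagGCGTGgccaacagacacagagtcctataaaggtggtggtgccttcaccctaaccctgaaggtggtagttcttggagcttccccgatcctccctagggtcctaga
Cyp1b1: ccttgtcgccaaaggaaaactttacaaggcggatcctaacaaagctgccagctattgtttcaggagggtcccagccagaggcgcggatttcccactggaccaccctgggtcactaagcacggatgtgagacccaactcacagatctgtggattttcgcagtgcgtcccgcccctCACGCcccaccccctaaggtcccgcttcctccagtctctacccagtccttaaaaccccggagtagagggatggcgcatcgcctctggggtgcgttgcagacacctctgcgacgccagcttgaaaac
Tiparp: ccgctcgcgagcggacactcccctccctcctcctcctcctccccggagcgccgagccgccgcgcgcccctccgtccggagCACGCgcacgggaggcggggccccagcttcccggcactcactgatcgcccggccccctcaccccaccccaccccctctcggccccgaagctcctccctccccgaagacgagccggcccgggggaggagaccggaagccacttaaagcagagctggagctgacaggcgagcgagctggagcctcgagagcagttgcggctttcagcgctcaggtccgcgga
Ahrr: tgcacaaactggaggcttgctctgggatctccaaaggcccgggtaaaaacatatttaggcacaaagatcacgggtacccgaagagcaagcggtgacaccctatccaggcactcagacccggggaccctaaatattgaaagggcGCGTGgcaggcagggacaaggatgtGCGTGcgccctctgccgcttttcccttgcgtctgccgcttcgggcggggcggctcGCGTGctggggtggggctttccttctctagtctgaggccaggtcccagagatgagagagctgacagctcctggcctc
The Arnt window held 1 core, at -29, and the Nqo1 window held 0.

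Cyp1a1 was listed at 0 in all but 2 HFD libraries and was above 0 in every CHOW library at 8 and 20 weeks. Its gene lies at chr9:57687928-57703824 on the plus strand and overlaps no other annotated gene. At 8 weeks the CHOW libraries held 14.0, 2.42, 1.79 and 3.17 TPM. The HFD libraries held 0 in 5 and 0.340 TPM in replicate 6, one of the libraries that stood apart. The groups did not overlap, as was the case for 1.77% of all genes with HFD lower. The difference in mean log2(TPM + 1), HFD minus CHOW, was -2.24, and it depends on the pseudocount because the HFD values are at or near 0. CHOW replicate 1 stood far above the other 3 CHOW libraries.

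**Figure D1:**
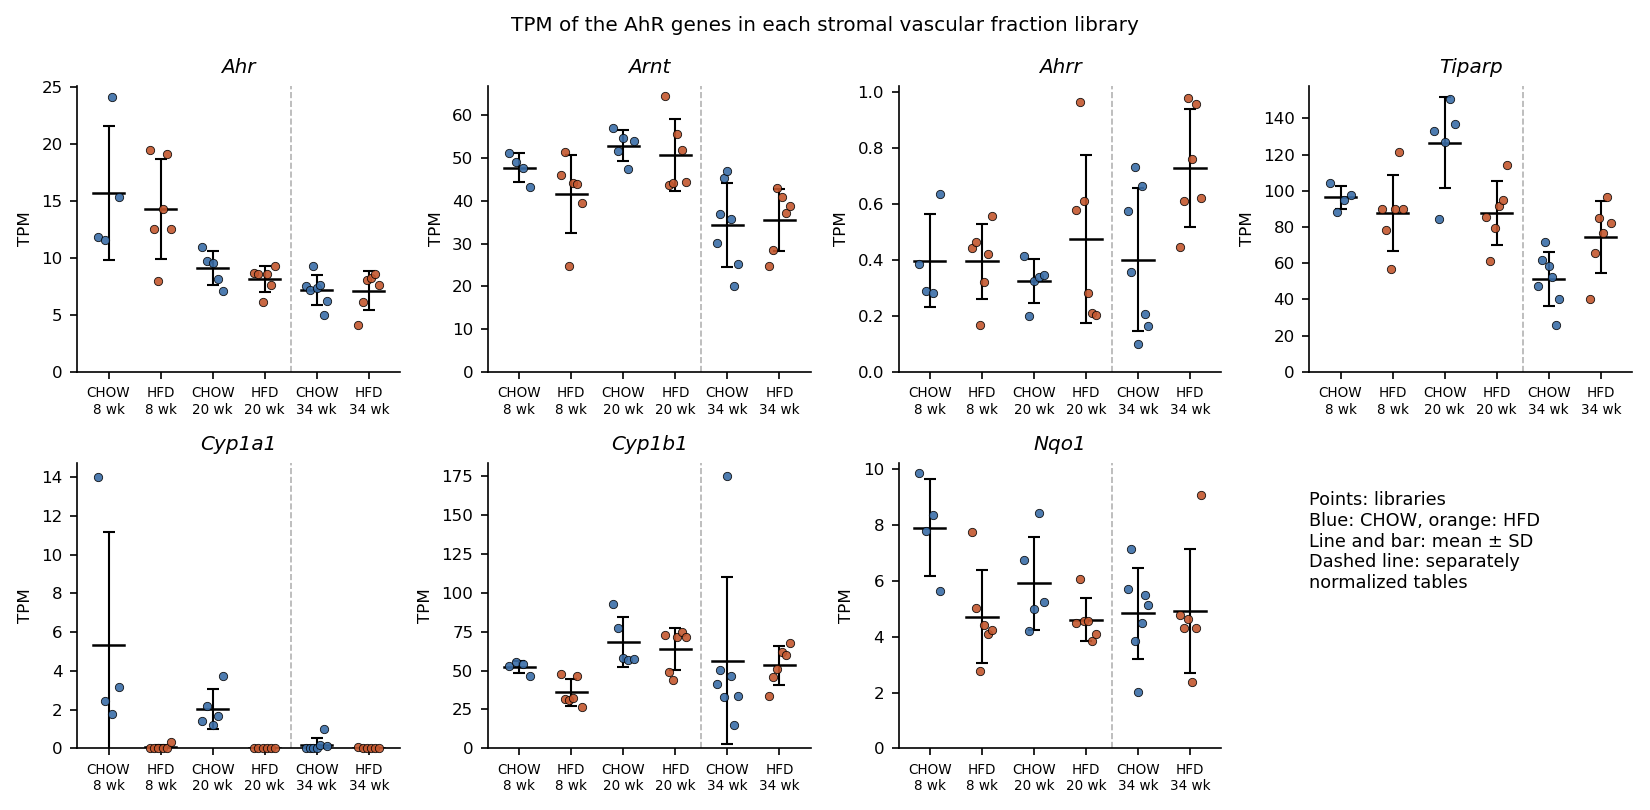
TPM (vertical axes, linear from 0) of the 7 genes in each library of the 6 diet and time groups, with the group mean and SD as line and bar; blue is CHOW and orange is HFD. Cyp1a1 is at 0 in all 6 HFD libraries of 20 weeks and between 1.21 and 3.74 TPM in the 5 CHOW libraries, whereas the receptor gene Ahr overlaps between diets at each time.

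The 20 week libraries came from other mice than those on which the gene had been chosen. The members were, however, chosen with earlier results of these data known, and whether those included 20 week values is not stated. The 20 week tests are therefore not shown to be independent of the choice. The CHOW libraries held 1.39, 2.18, 1.21, 1.65 and 3.74 TPM of Cyp1a1, and all 6 HFD libraries were listed at 0. Every HFD library was thus below every CHOW library. The fitted difference was -1.55 (SE 0.31, adjusted p = 0.0028 by limma). The gene reached 1 TPM only in the 9 CHOW libraries of 8 and 20 weeks, so it passed the filter on low values through the diet on which it was high, and this fit took its spread partly from the 8 week libraries on which it had been chosen. With no filter the adjusted p was 0.0045, and in a fit of the 20 week libraries alone it was 0.00092. An exact permutation test over the 11 libraries gave p = 0.0022, two-sided, the smallest that this design can give. Of all 32098 genes listed, 6 (0.0187%) were at 0 in all HFD and above 0 in all CHOW libraries, Cyp1a1 among them. Of the 16808 genes that passed the filter, 3.69% did not overlap with HFD lower. The other 5 tested members did not pass the test at 20 weeks, where 14.3% of those 16808 genes did. With a score of adipocyte markers in the model the difference was -1.36 and its adjusted p was 0.184, in a fit where the count of all genes past the threshold fell from 2405 to 100.

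The summed TPM of 9 adipocyte markers was lower on HFD at 20 and at 8 weeks, as was Cyp1a1. It was 532 to 1060 in the CHOW and 286 to 450 in the HFD libraries at 20 weeks, and 913 to 1964 against 457 to 893 at 8 weeks, so the groups did not overlap at either time. Across the times they did. HFD replicates 3 and 5 of 8 weeks held 792 and 893 with Cyp1a1 at 0. CHOW replicate 2 of 20 weeks held 532 with 2.18 TPM of Cyp1a1. Of the 9 genes 5 passed the test at 20 weeks and were lower on HFD, whereas Lep, which encodes leptin, was higher (1.63, adjusted p = 0.0305). At 34 weeks it reached 11999, 54621 and 16763 in CHOW replicates 5, 6 and 7 and lay between 297 and 1559 in the other CHOW libraries. Those 3 libraries held 0.196, 0.972 and 0.123 TPM of Cyp1a1, and the other 4 CHOW libraries were listed at 0. The mesothelial markers also moved at 20 weeks, all 8 of them past the test and lower on HFD, with sums of 218 to 750 in CHOW and 69.5 to 217 in HFD. At 8 weeks the mesothelial sums overlapped (193 to 408 in CHOW, 79.0 to 556 in HFD). The mast cell sums did not overlap at 8 weeks (305 to 567 in CHOW, 119 to 285 in HFD), though none of the 7 mast cell genes passed the test there. The 10 endothelial markers gave no call at either time. Other markers past the test at 20 weeks were 5 of 5 red cell genes, lower on HFD, and 5 of 10 macrophage and 6 of 7 mast cell genes, higher on HFD. The summed TPM of 5 dendritic cell genes did not overlap either, at 92.6 to 123.7 in CHOW and 26.2 to 39.8 in HFD, and 1 of the 5, Cd209a, passed (-2.95, adjusted p = 3.42e-07). Of 9 fibroblast and progenitor genes 3 were lower and 1 was higher, 1 neutrophil and 1 T cell gene were lower, and 1 male germ cell gene was higher. The part of these cells in the Cyp1a1 result was not tested beyond the adipocyte term.

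**Figure D2:**
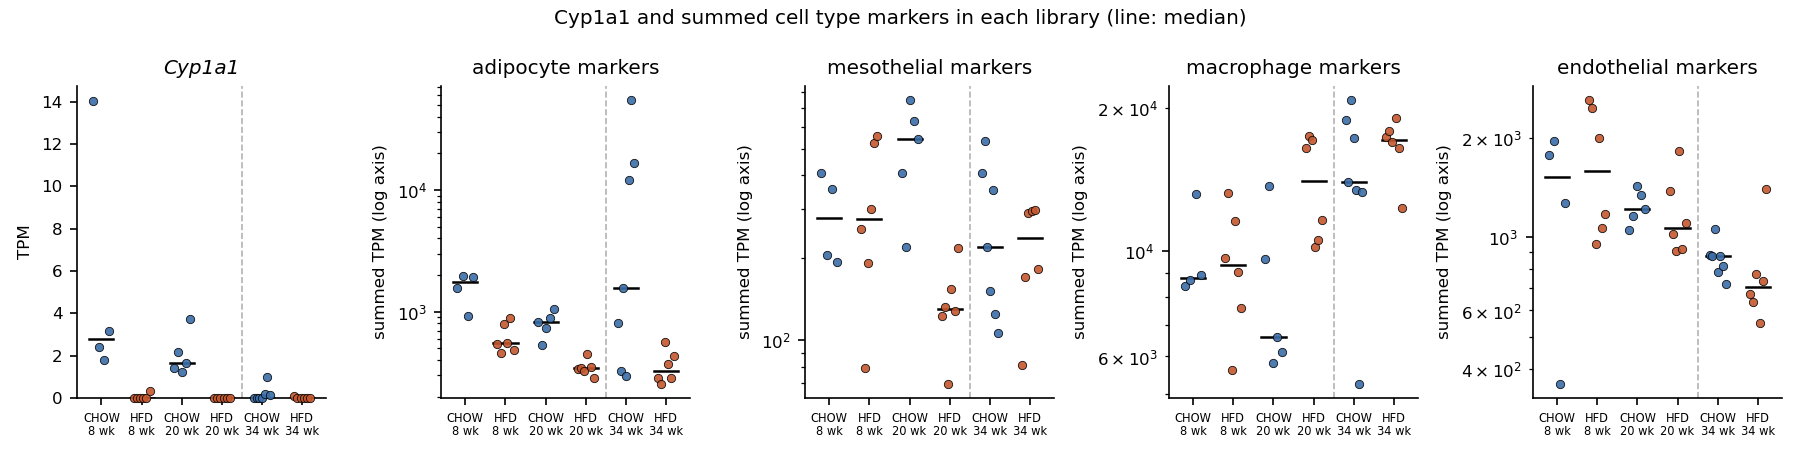
Cyp1a1 in TPM (linear axis) and the summed TPM of adipocyte, mesothelial, macrophage and endothelial markers (log axes) in each library of the 6 groups, with the median as a line; blue is CHOW and orange is HFD. The adipocyte sum is 286 to 450 in HFD and 532 to 1060 in CHOW at 20 weeks, and it reaches 54621 in the 34 week CHOW library that holds 0.972 TPM of Cyp1a1.

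Cyp1a1 was close to absent on both diets at 34 weeks. Of 7 CHOW libraries 3 were above 0, and of 6 HFD libraries only replicate 1 was, at 0.0755 TPM. The gene missed the filter on low values there. The difference was -0.18 on the log2(TPM + 1) scale, with p = 0.241 in an exact permutation test over the 13 libraries. On CHOW the mean was 5.36 ± 5.82 TPM (SD, n = 4) at 8 weeks, 2.04 ± 1.02 (n = 5) at 20 weeks and 0.184 ± 0.356 (n = 7) at 34 weeks. The ranges of 8 and 20 weeks overlapped. Which of the 2 control diets each CHOW mouse ate is not given, so control diet and time cannot be told apart in these levels. The time course of Cyp1a1 was not tested, because the gene had been chosen on the 8 week libraries and the 34 week table was made apart.

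The receptor gene Ahr fell on HFD between 8 and 20 weeks and passed no test for diet. It lies at chr12:35497974-35535038 on the minus strand, where the non-coding gene Gm48236 overlaps it on the other strand. On HFD it held 19.5, 12.6, 7.97, 14.3, 19.2 and 12.5 TPM at 8 weeks and 8.68, 8.57, 6.11, 8.57, 7.65 and 9.28 TPM at 20 weeks. Of the 6 libraries of 20 weeks, 2 lay below all 8 week libraries, and the overlap came from HFD replicate 3 of 8 weeks, a library that stood apart. The fitted change was -0.70 (SE 0.19, adjusted p = 0.0295). Leaving out 1 library moved this call past the threshold in 4 cases, with an adjusted p of 0.0693 without HFD replicate 1 and 0.0734 without replicate 5 of 8 weeks, and of 0.0671 without HFD replicate 3 and 0.0516 without replicate 5 of 20 weeks. It was also lost with the adipocyte term (adjusted p = 0.217) and in a fit of the 2 groups alone (0.0562). In the same comparison 7 of 7 mast cell and 5 of 10 macrophage markers were higher at 20 weeks, 5 of 5 red cell and 6 of 9 adipocyte markers were lower, and their part in the Ahr and Cyp1b1 changes was not tested beyond the adipocyte term.

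On CHOW the Ahr values were 11.8, 11.6, 24.1 and 15.3 TPM at 8 weeks and 10.96, 9.73, 9.53, 8.15 and 7.10 TPM at 20 weeks. All 5 libraries of 20 weeks lay below all 4 of 8 weeks, which 3.66% of genes did. The change of -0.68 (SE 0.23) did not pass the test (adjusted p = 0.185). The decline on HFD is thus not shown to differ from that on CHOW, and that difference was not tested. The 34 week means were 7.18 ± 1.33 TPM for CHOW (SD, n = 7) and 7.14 ± 1.71 (n = 6) on HFD. Between diets Ahr differed by -0.14 (SE 0.20, adjusted p = 0.692) at 20 weeks and by -0.02 (SE 0.17, adjusted p = 0.962) at 34 weeks, and the diet groups overlapped at all 3 times.

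Arnt, which encodes the partner that the receptor shares with the hypoxia-inducible factors, had a higher mean than Ahr in every group and passed no test for diet or time. It lies at chr3:95434388-95497240 on the plus strand and overlaps the pseudogene Gm42672. Its group means ran from 41.7 ± 9.14 TPM (SD, n = 6) on HFD at 8 weeks to 52.9 ± 3.64 (n = 5) on CHOW at 20 weeks. In the separate 34 week table CHOW was at 34.3 ± 9.89 (n = 7) and HFD at 35.5 ± 7.27 (n = 6). Neighbouring groups in this order overlapped. The difference between diets was -0.07 (SE 0.15, adjusted p = 0.787) at 20 weeks and 0.07 (SE 0.20, adjusted p = 0.884) at 34 weeks. From 8 to 20 weeks Arnt differed by 0.30 (SE 0.14, adjusted p = 0.180) on HFD and by 0.14 (SE 0.16, adjusted p = 0.797) on CHOW. The lowest value on HFD at 8 weeks, 24.7 TPM, was that of replicate 3.

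Ahrr, the repressor that competes with the receptor for ARNT, stayed below 1 TPM in all 34 libraries and missed the filter in both tables. At 20 weeks it was 0.414, 0.198, 0.325, 0.338 and 0.344 TPM on CHOW and 0.576, 0.964, 0.610, 0.282, 0.211 and 0.202 TPM on HFD. The groups overlapped and the exact permutation p was 0.355, where 21.1% of the genes above 0 in any library gave a p under 0.05. At 34 weeks it ranged from 0.101 to 0.732 TPM on CHOW (median 0.357) and from 0.445 to 0.976 TPM on HFD (median 0.690). Of the 6 HFD libraries, 3 lay above all CHOW libraries. The difference was 0.32 on the log2(TPM + 1) scale, with an unadjusted exact permutation p of 0.0355 (n = 7 and 6), where 12.1% of genes gave a p under 0.05. That p rose to between 0.0584 and 0.0720 when CHOW replicate 2, 4, 6 or 7 or HFD replicate 3, 4 or 5 was left out, and was 0.0649 without CHOW replicate 6, the library that stood apart. At 8 weeks the means were 0.397 ± 0.166 TPM (SD, n = 4) on CHOW and 0.395 ± 0.134 (n = 6) on HFD.

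Tiparp, which had the highest mean TPM of the 7 genes in every group but CHOW at 34 weeks, was lower on HFD at 20 weeks but just missed the threshold. It lies at chr3:65528410-65555518 on the plus strand, opposite the pseudogene 4931440P22Rik. The CHOW libraries held 133.0, 84.6, 127.2, 151.0 and 137.2 TPM, and the HFD libraries held 85.7, 61.0, 79.4, 91.9, 94.7 and 114.4 TPM. All CHOW libraries but replicate 2 lay above all HFD libraries. The difference was -0.52 (SE 0.18, adjusted p = 0.0521), and an exact permutation test added afterwards gave an unadjusted p of 0.0260 (n = 5 and 6). The gene passed the threshold without CHOW replicate 2 (adjusted p = 0.0135), without HFD replicate 6 (0.0250), and without HFD replicate 3 (0.0255) or 5 (0.0437) of 8 weeks, which share its estimate of the spread. It also passed with sample weights (0.0018), under both other scalings (0.0200 and 0.0208), with contaminant genes taken out (0.0189) and without the libraries that stood apart (0.0322). It did not pass with the adipocyte term, a pseudocount of 0.1, no filter or a fit of the 2 groups alone, nor with any other library left out.

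At 34 weeks the Tiparp values leaned the other way. They ran from 25.9 to 71.9 TPM on CHOW (median 52.4) and from 40.2 to 96.8 TPM on HFD (median 79.6), with 4 of 6 HFD libraries above all CHOW libraries. The difference was 0.54 (SE 0.24) and did not pass the test (adjusted p = 0.348, and p = 0.0554 in the exact permutation test). The difference between the 20 and 34 week effects was not tested, since the tables were made apart. The lowest CHOW value was that of replicate 6, the adipocyte-rich library. At 8 weeks the means were 96.3 ± 6.57 TPM (SD, n = 4) on CHOW and 87.8 ± 20.9 (n = 6) on HFD. From 8 to 20 weeks Tiparp differed by 0.37 (SE 0.20, adjusted p = 0.462) on CHOW and by 0.01 (SE 0.17, adjusted p = 0.976) on HFD, the latter a value whose sign turned under other scalings.

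Cyp1b1, a relative of Cyp1a1 that is also expressed in mesenchymal cells, rose on HFD between 8 and 20 weeks. It lies at chr17:79701537-79715061 on the minus strand and overlaps no annotated gene. The HFD libraries held 47.7, 31.9, 31.2, 32.1, 46.6 and 26.7 TPM at 8 weeks and 72.6, 49.1, 44.2, 71.6, 75.0 and 71.8 TPM at 20 weeks. All but 1 of the later libraries lay above all the earlier ones. The change was 0.82 (SE 0.17, adjusted p = 0.0043). Together with Ahr it made 2 of the 5 members tested, against 8.78% of all genes. The call was lost with the adipocyte term (0.99, adjusted p = 0.148) and without the libraries that stood apart (0.63, adjusted p = 0.0532).

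On CHOW the Cyp1b1 libraries of 20 weeks (57.0 to 92.8 TPM) all lay above those of 8 weeks (46.4 to 55.8 TPM), as did 2.61% of genes. The change was 0.36 (SE 0.20, adjusted p = 0.485), and no member passed the test on CHOW, where 0.613% of genes did. Between diets the values at 8 weeks were 52.3 ± 4.08 TPM (SD, n = 4) on CHOW and 36.01 ± 8.83 (n = 6) on HFD, with 4 of 6 HFD libraries below all CHOW libraries. At 20 weeks the difference was -0.09 (SE 0.18, adjusted p = 0.764), and its sign turned under the adipocyte term. At 34 weeks CHOW replicate 4 held 175.1 TPM and the other 6 CHOW libraries 15.3 to 50.1 TPM, against 33.7 to 67.6 TPM on HFD. The diet difference there was 0.25 (SE 0.40, adjusted p = 0.792).

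**Figure D3:**
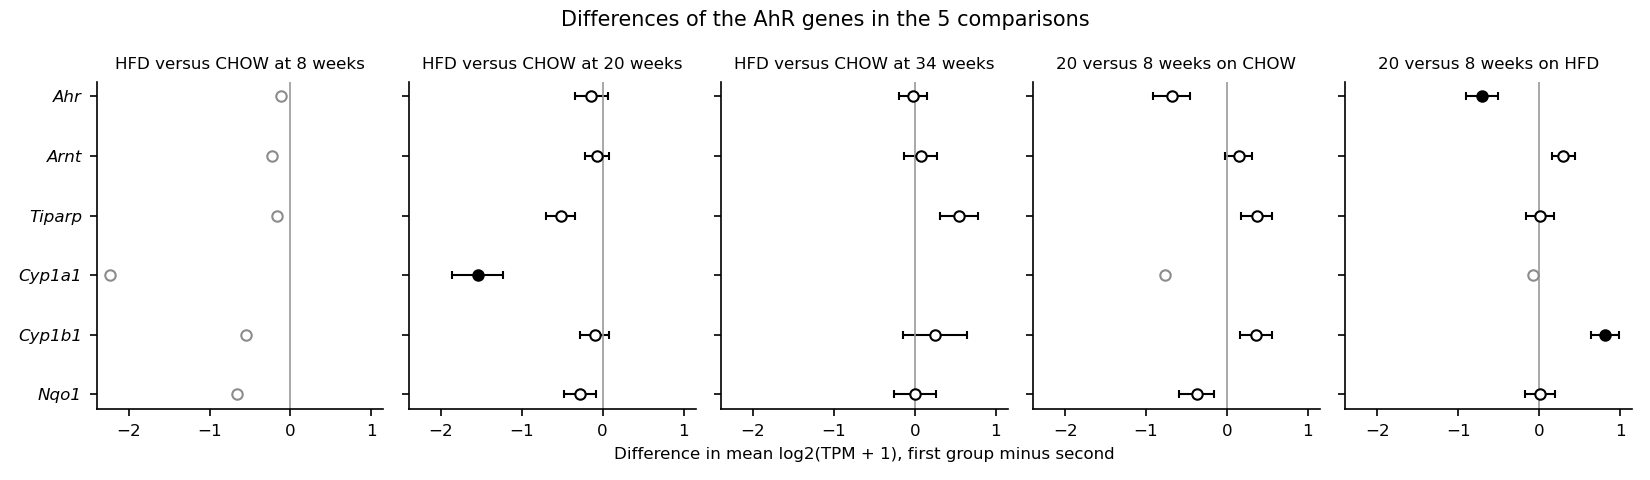
Differences in mean log2(TPM + 1), first group minus second, of the 6 genes that passed the filter, in the 5 comparisons; bars are SE, filled points passed an adjusted p of 0.05, and grey points carry no test. The filled points are Cyp1a1 at -1.55 for diet at 20 weeks, and Ahr at -0.70 and Cyp1b1 at 0.82 for time on HFD.

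Nqo1 passed no test. It lies at chr8:107388225-107403206 on the minus strand and overlaps no annotated gene. At 8 weeks the CHOW libraries held 9.85, 7.80, 8.37 and 5.63 TPM and the HFD libraries 7.75, 5.03, 2.78, 4.43, 4.09 and 4.23 TPM. All HFD libraries but replicate 1 lay below all CHOW libraries, and the difference in mean log2(TPM + 1) was -0.66. At 20 weeks the means were 5.92 ± 1.67 TPM (SD, n = 5) on CHOW and 4.61 ± 0.77 (n = 6) on HFD, a difference of -0.28 (SE 0.20, adjusted p = 0.353). At 34 weeks they were 4.83 ± 1.62 (n = 7) and 4.91 ± 2.22 (n = 6), a difference of 0.00055 (SE 0.26, adjusted p = 0.999) with HFD replicate 6 at 9.07 TPM. From 8 to 20 weeks Nqo1 differed by -0.37 (SE 0.22, adjusted p = 0.513) on CHOW and by 0.01 (SE 0.19, adjusted p = 0.981) on HFD. At 34 weeks none of the 5 tested members passed, against 0.243% of all genes, and 0.0238% of genes passed at 8 weeks.

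Of 12 further genes known to respond to the receptor, 4 fell with HFD at 20 weeks. Of the 8 tested, all 8 had negative differences and 4 passed the test, none of them higher, where 4.99% of all genes passed with HFD lower. Their median difference was -0.67, beside 0.08 over all genes. The list was put together with results of these data known. The summed adipocyte and mesothelial markers were lower in the same libraries (above), and with the adipocyte term 0 of these genes passed, though the differences of those 4 stayed negative, from -0.53 to -2.97.

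Ugt1a6a and Ugt1a6b encode glucuronosyltransferases that clear phenols, and they share exons, so how reads were divided among the pair is uncertain. Ugt1a6a held 85.5, 62.0, 130.1, 90.5 and 81.1 TPM on CHOW and 49.7, 51.5, 39.0, 53.1, 49.5 and 65.6 TPM on HFD at 20 weeks. Only the highest HFD library exceeded the lowest CHOW library. The difference was -0.77 (SE 0.19, adjusted p = 0.0128). Ugt1a6b held 9.94, 5.25, 6.11, 7.09 and 6.30 TPM on CHOW and 3.03, 1.91, 2.89, 3.88, 2.27 and 5.22 TPM on HFD. The groups did not overlap, and the difference was -0.94 (SE 0.22, adjusted p = 0.0079). The differences of Ugt1a6b were -0.94 (SE 0.23) at 8 weeks and -0.84 (SE 0.29) at 34 weeks, without passing the test there (adjusted p = 0.1499 and 0.250). Since the list was chosen with results of these data known, the 8 week value is no separate support.

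Serpinb2, which encodes a plasminogen activator inhibitor of macrophages and mesothelial cells, held 114.9, 101.2, 70.8, 115.8 and 57.9 TPM on CHOW and 15.6, 12.5, 16.6, 12.9, 33.1 and 34.9 TPM on HFD at 20 weeks. Each HFD library was lower than every CHOW library, a difference of -2.16 (SE 0.56, adjusted p = 0.0145). The 8 mesothelial markers had a median difference of -2.09 in the same comparison. Scin, which encodes an actin-severing protein, held 3.29, 2.81, 4.54, 4.66 and 5.81 TPM on CHOW and 1.10, 1.25, 1.07, 2.69, 2.34 and 1.77 TPM on HFD. Its groups did not overlap either, with a difference of -0.96 (SE 0.28, adjusted p = 0.0264). Scin no longer passed when any of CHOW replicates 3, 4 and 5 and HFD replicate 3 of 20 weeks was left out (adjusted p of 0.0547 to 0.0796). Serpinb2 differed by -1.83 (SE 0.52, adjusted p = 0.178) at 34 weeks, and Scin by 0.47 (SE 0.26, adjusted p = 0.451).

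The other 4 tested genes of this list had differences of -0.53 (Cyp2s1, adjusted p = 0.422), -0.58 (Slc7a5, 0.108), -0.42 (Socs2, 0.114) and -0.52 (Xdh, 0.0609) at 20 weeks. Cyp1a2, the liver relative of Cyp1a1, was listed at 0 in all 34 libraries. Aldh3a1, Gsta1 and Gsta2 missed the filter. None of the 8 tested genes passed at 8 or 34 weeks or over time by limma, with an unadjusted p under 0.05 for 1 gene at 8 weeks, 2 at 34 weeks, 3 over time on CHOW and 1 over time on HFD.

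**Figure D4:**
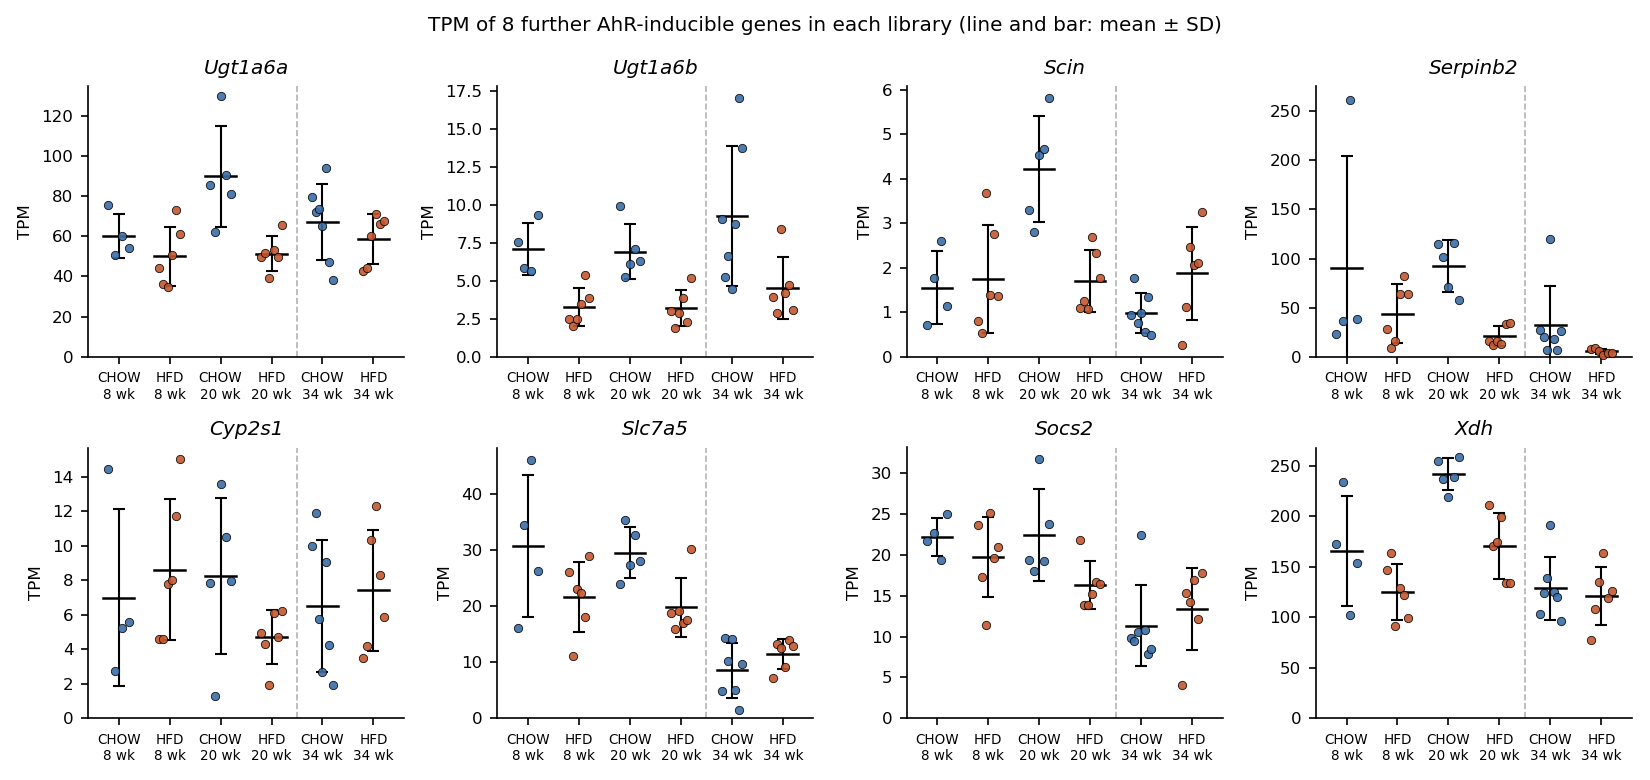
TPM (linear axes from 0) of 8 further receptor-inducible genes in each library of the 6 groups, with mean and SD; blue is CHOW and orange is HFD. At 20 weeks Ugt1a6b, Scin and Serpinb2 do not overlap between diets, while Serpinb2 reaches 261.3 TPM in 1 CHOW library of 8 weeks.

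The chaperone genes Hsp90aa1, Hsp90ab1 and Ptges3 and relatives of ARNT gave no call. None of these 3 and none of 7 ARNT-related factors passed the test in any of the 5 comparisons. Of the 3 chaperone genes, an unadjusted p under 0.05 by limma was reached by Hsp90aa1 and Ptges3 for diet at 8 weeks and by Ptges3 for time on HFD. Hsp90ab1, the most abundant of them, was 953 ± 52.9 TPM (SD, n = 5) on CHOW and 949 ± 85.2 (n = 6) on HFD at 20 weeks. Ptges3 was 109.0 ± 9.60 and 89.9 ± 13.2 TPM there (-0.28, adjusted p = 0.195). Among the ARNT-related factors, Hif1a and Epas1, the oxygen-regulated partners of ARNT, differed by -0.22 (adjusted p = 0.474) and -0.46 (adjusted p = 0.289) at 20 weeks. The clock gene Arntl differed by -0.42 (adjusted p = 0.203) at 20 weeks and by 0.77 (adjusted p = 0.162) at 34 weeks.

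Of 12 tryptophan catabolism genes, some of whose products make or remove receptor ligands, 10 were tested and 2 passed for diet at 20 weeks, in opposite directions. Kmo, whose enzyme hydroxylates kynurenine, was 4.44 ± 1.46 TPM (SD, n = 5) on CHOW and 1.74 ± 0.656 (n = 6) on HFD, a difference of -0.99 (SE 0.21, adjusted p = 0.0044). Qprt, at the step that leads to NAD, was 1.77 ± 0.693 and 3.69 ± 0.566 TPM, a difference of 0.79 (SE 0.17, adjusted p = 0.0055). From 8 to 20 weeks on HFD, Kmo fell (-1.03, adjusted p = 0.0028), Haao fell (-1.03, adjusted p = 0.0181) and Qprt rose (0.89, adjusted p = 0.0018). These 2 comparisons share the HFD libraries of 20 weeks, and in each of them 5 of 10 macrophage markers passed the test and were higher.

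Nqo1's other regulator, NRF2, was represented by 17 genes, and they did not move as 1 group. At 20 weeks 3 fell and 1 rose with HFD. Hmox1 (heme oxygenase) fell from 1175 ± 239 TPM (SD, n = 5) to 526.5 ± 112 (n = 6), a difference of -1.16 (adjusted p = 0.0283), beside red cell genes that were lower in the same libraries. Gsta4 (-1.21, adjusted p = 0.0174) and Gsr (-0.89, adjusted p = 0.0462) fell, and the ferritin gene Ftl1 rose (0.79, adjusted p = 0.0165). With 1 library of 20 weeks left out, Hmox1 lost its call in 5 cases (CHOW replicates 3 and 4, HFD replicates 3, 4 and 5, adjusted p of 0.0508 to 0.0800) and Gsta4 in 3 (CHOW replicates 3, 4 and 5, 0.0562 to 0.0609). Gsr lost it in 13 cases (0.0506 to 0.0965), namely every library of 20 weeks but HFD replicate 2, and HFD replicates 4, 5 and 6 of 8 weeks. With no filter Ftl1, Hmox1 and Gsr did not pass (adjusted p of 0.113, 0.0551 and 0.0791). Gsr also lost its call with the replicate block (0.0507) and with sample weights (0.0516). Without the libraries that stood apart Gsr did not pass (0.0662), while Pgd (0.72, adjusted p = 0.0147) and Tkt (0.60, adjusted p = 0.0153) did. The list's median difference was 0.06, beside 0.08 over all genes. From 8 to 20 weeks on HFD, Txnrd1 (1.00, adjusted p = 0.0032), Srxn1 (0.87, adjusted p = 0.0299) and Ftl1 (0.70, adjusted p = 0.0316) rose. Without the libraries that stood apart Srxn1 (0.0655) and Ftl1 (0.0609) did not pass, nor did they with no filter (0.0539 and 0.1589) or in the fit of the 2 groups alone (0.0756 and 0.117). With 1 library left out, Srxn1 lost its call in 3 cases (HFD replicates 2 and 6 of 20 weeks and 1 of 8 weeks, 0.0514 to 0.0566) and Ftl1 in 7 (HFD replicates 1, 2 and 3 of 20 weeks and 1, 3, 5 and 6 of 8 weeks, 0.0520 to 0.0641). At 8 weeks 16 of the 17 were lower on HFD with a median of -0.39 beside -0.08 over all genes, and none passed by limma (6 had an unadjusted p under 0.05). Of all genes tested 37.9% were higher on HFD there, but 51.1% with median-ratio scaling and 59.4% without the libraries that stood apart. The count of 16 is given for the main fit only.

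Of 12 genes induced by the hypoxia factors, which also pair with ARNT, 3 passed for diet at 20 weeks. Egln3 fell from 17.9 ± 10.7 TPM (SD, n = 5) to 2.47 ± 1.09 (n = 6), a difference of -2.28 (SE 0.38, adjusted p = 0.00057). Bnip3 fell (-0.80, adjusted p = 0.0076) and Car9 rose (0.75, adjusted p = 0.0327). Car9 no longer passed when any of CHOW replicates 1, 3, 4 and 5 and HFD replicates 1 to 4 of 20 weeks was left out (0.0505 to 0.0992). Its call was also lost with no filter (adjusted p = 0.05015), a pseudocount of 0.1 (0.0603) and quantile normalization (0.0601). Without the libraries that stood apart, Ankrd37 (0.73, adjusted p = 0.0337) and Pdk1 (0.51, adjusted p = 0.0475) passed as well. Ankrd37 then also passed from 8 to 20 weeks, on CHOW (-1.40, adjusted p = 0.0065) and on HFD (-1.31, adjusted p = 0.0038). For diet at 20 weeks the list's median was 0.06 beside 0.08 over all genes. Of 13 genes switched on by tissue dissociation, Dusp1 rose with HFD at 20 weeks (0.63, adjusted p = 0.0233), but not past the threshold without CHOW replicate 4 (0.0709) or HFD replicate 4 (0.0545). Zfp36, which encodes an RNA decay factor, rose from 8 to 20 weeks on HFD (0.71, adjusted p = 0.0178) and on CHOW (0.92, adjusted p = 0.0462). The call on HFD was lost without the libraries that stood apart (0.137), and that on CHOW with any of 13 libraries left out (0.0529 to 0.198), namely CHOW replicates 1, 3, 4 and 5 and HFD replicates 1, 2, 3, 5 and 6 of 20 weeks, and CHOW replicates 1, 2 and 4 and HFD replicate 5 of 8 weeks. Zfp36 also lost its call on HFD in the fit of the 2 groups alone (adjusted p = 0.0722), and on CHOW with no filter (0.0887) or the replicate block (0.0735). With the adipocyte term no gene of these lists passed in any of these comparisons. At 8 and at 34 weeks, none of the genes of any of these lists passed for diet.

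Genes that followed each member closely were found by Pearson's r of log2(TPM + 1) over the 21 libraries of 8 and 20 weeks. These libraries share diets, times and cell composition, and r is given as a description. For Cyp1a1 they were Mrpl38 (r = 0.82, and 0.86 over the 13 libraries of 34 weeks), Timd4 (0.81 and 0.61), a marker of resident macrophages, and Endou (0.79 and 0.78). For Ahr they were Cd80 (0.93 and 0.27) and Spty2d1 (0.93 and 0.73). Arnt was followed by Jmjd1c (0.88) and Sf1 (0.87), each with r of 0.79 at 34 weeks. Tiparp was followed by Man1a, Plat and Twsg1, with r of 0.88 to 0.91 and of 0.69 to 0.71 at 34 weeks. The leading genes of Cyp1b1 were Ntrk2 (0.85 and -0.14) and Serping1 (0.85 and 0.87). Those of Nqo1 were Acap1 (0.82 and -0.03), Fam111a (0.80 and 0.08) and Pim2 (0.78 and -0.20). Among the members themselves, Cyp1a1 had an r of 0.09 with Ahr, 0.21 with Cyp1b1, 0.40 with Tiparp and 0.62 with Nqo1 over the 21 libraries. Over the 13 libraries of 34 weeks, 9 of which were listed at 0 for Cyp1a1, the values were -0.52, -0.66, -0.76 and 0.15 in that order.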

How the data were processed

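SVF RNA was made into stranded poly(A) libraries and sequenced on a NextSeq. The authors trimmed reads with Trimmomatic, checked them with FastQC and MultiQC, and quantified gencode M10 transcripts with Salmon. The sources used here do not give tool versions. The deposited values are TPM per gene, summed from transcripts, in 2 tables that each sum to 1000000 per library. TPM keeps no depth, so no counting interval can be given, and the authors' count test with DESeq2 could not be repeated.

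Groups and replicate numbers came from the sample titles. Nothing says more of the replicates than that they are separate samples, so p-values measure the spread between these samples. Gene IDs were named with gencode M21 (GRCm38, coordinates counted from 1), without version suffix, and 31791 of 32098 matched. TPM was taken as log2(TPM + 1), so fold changes of low genes are understated. A gene was tested if 4 libraries (8 and 20 weeks, 16808 genes) or 6 (34 weeks, 13982 genes) held 1 TPM or more of it, with limma 3.58.1 in R 4.3.3 (1 mean per group, trended eBayes, two-sided, Benjamini-Hochberg over all genes, threshold 0.05). The 4 groups of 8 and 20 weeks shared 1 fit. Members under the filter were given exact permutation tests over libraries. The script was tested on simulated data in which only well expressed genes were changed, so low genes such as Cyp1a1 and Ahrr were not covered. Members and lists were chosen with earlier results of these data known. Named were the 7 members, the list genes that passed and some of the most abundant others, and those of the 3 genes most like each member by Pearson's r that are reported here. A few other genes are not reported here.

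Alternatives were a pseudocount of 0.1, no filter, quantile normalization, median-ratio scaling, sample weights, a fit of the 2 groups alone, a replicate block, an adipocyte score, removal of contaminant genes (red cell, germ cell, seminal vesicle, epididymal and mitochondrial), and leaving out libraries. The exact tests of members that passed the filter were added after the data were seen.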

Additional observations from a re-analysis of the deposited data

Results flagged for a closer look

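Within the groups of 4 to 7 libraries, 7 values in 41 groups of a gene that varied lay far from the rest of their group. The rule sets the gap to the next value against the range of the group. It is meant to flag about 1 in 20 groups by chance. A group with 1 value above others that are all equal is always flagged, so that rate does not hold there. The number of flags is therefore given as a description.

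Cyp1a1 gave 4 of the flagged values. CHOW replicate 1 at 8 weeks held 14.0 TPM, with 3.17 TPM as the next value. HFD replicate 6 at 8 weeks held 0.340 TPM and HFD replicate 1 at 34 weeks held 0.0755 TPM, each in a group of 6 whose other libraries were listed at 0. In such a group the value is flagged whatever its size. CHOW replicate 6 at 34 weeks held 0.972 TPM, with 0.196 TPM as the next value. Without CHOW replicate 1 the difference in mean log2(TPM + 1) at 8 weeks went from -2.24 to -1.70, still with every HFD library below every other CHOW library.

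Cyp1b1 held 175.1 TPM in CHOW replicate 4 at 34 weeks, with 50.1 TPM as the next value. Nqo1 held 6.08 TPM in HFD replicate 2 at 20 weeks, with 4.58 TPM as the next value, and 9.07 TPM in HFD replicate 6 at 34 weeks, with 4.79 TPM as the next value.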

How the results depend on the processing

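The fall of Cyp1a1 at 20 weeks kept its direction under every alternative run and its call under all but the adipocyte term (-1.36, adjusted p = 0.184, among 100 calls over all genes instead of 2405); with 1 library left out its adjusted p was at most 0.0132. The number of members past the threshold at 20 weeks, 1 as reported, was 2 (Cyp1a1 and Tiparp) with quantile normalization, median-ratio scaling, sample weights, the replicate block, contaminant genes taken out and without the libraries that stood apart, 0 with the adipocyte term, and 1 to 2 with 1 library left out. Nothing says that equal replicate numbers pair the samples, so the main fit used no pairs. The deviations of same-numbered libraries had correlations of 0.026 to 0.21 for diet at 8 weeks. For diet at 20 weeks they were -0.10 to 0.15, and at 34 weeks -0.0097 to 0.21. Over time they were -0.090 to 0.031 on CHOW and 0.047 to 0.40, all positive, on HFD. Whether equal numbers share a batch was not tested. Under the block 3597 of all genes passed for diet at 20 weeks instead of 2405. Tiparp then differed by -0.57 (adjusted p = 0.00997), and no other member's call changed. Over time on CHOW 1 member (Ahr) passed instead of 0 with sample weights (adjusted p = 0.0374) and with contaminant genes taken out (0.0235). Over time on HFD 2 passed, but 1 in the fit of the 2 groups alone and without the libraries that stood apart, 0 with the adipocyte term, and 1 to 2 with 1 library left out. At 8 weeks 1 member did not overlap between diets, as was the case for 1.77% of all genes with HFD lower. With 1 library left out the number was 1 to 3. Cyp1b1 and Nqo1 joined Cyp1a1 without CHOW replicate 4, and Nqo1 did so without HFD replicate 1. The share of all genes is not given with a library left out, and smaller groups separate more readily by chance. The higher counts are thus a description only. With a pseudocount of 0.1 the 8 week difference of Cyp1a1 was -4.91. Of the tests of members under the filter 1 passed (Ahrr at 34 weeks), 0 without the libraries that stood apart, and 0 to 1 with 1 library left out.

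List genes past the threshold numbered 14 for diet at 20 weeks, 22 with either other scaling or with contaminant genes taken out, 30 with sample weights and 0 with the adipocyte term. All genes past it there numbered 2405 in the main fit, 3502 with quantile normalization and 3599 with median-ratio scaling. They numbered 3388 with contaminant genes taken out, 5092 with sample weights and 100 with the adipocyte term. Over time on HFD there were 7 list genes, but 17 with contaminant genes taken out, 14 with quantile normalization, 12 with median-ratio scaling or sample weights, 4 in the fit of the 2 groups alone and 0 with the adipocyte term. All genes past it there numbered 1475, but 3440 with contaminant genes taken out, 2755 with quantile normalization and 2443 with median-ratio scaling. They numbered 2073 with sample weights, 866 in the fit of the 2 groups alone and 105 with the adipocyte term. Over time on CHOW there was 1 list gene, but 10 with sample weights, 5 with median-ratio scaling, 4 with contaminant genes taken out or without the libraries that stood apart, 3 with quantile normalization, 2 with the other pseudocount or the fit of the 2 groups alone, and 0 without a filter or with the adipocyte term. All genes past it there numbered 103, but 1659 with sample weights, 417 with median-ratio scaling and 727 with contaminant genes taken out. They numbered 431 without the libraries that stood apart and 325 with quantile normalization. They numbered 100 with the other pseudocount, 68 in the fit of the 2 groups alone, 49 without a filter and 31 with the adipocyte term. For diet at 8 and at 34 weeks there were 0 list genes, and 4 each with sample weights. With those weights all genes past it went from 4 to 209 at 8 weeks and from 34 to 294 at 34 weeks.

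Differences near 0 changed sign. Cyp1b1 for diet at 20 weeks was 0.050 with the adipocyte term (-0.15 to 0.021 with 1 library left out). For diet at 34 weeks, Ahr was 0.014 with sample weights (-0.10 to 0.10 with 1 library left out). Arnt was -0.036 with median-ratio scaling, -0.040 without the libraries that stood apart (CHOW replicate 6), and -0.20 with the adipocyte term (-0.040 to 0.17). Cyp1b1 was -0.46 with the adipocyte term. Nqo1 was -0.18 with quantile normalization, -0.093 with median-ratio scaling, -0.13 with sample weights and -0.0031 with contaminant genes taken out (-0.17 to 0.15). Over time on HFD, Tiparp was -0.20, -0.062, -0.14, -0.25 and -0.14 with quantile normalization, median-ratio scaling, sample weights, contaminant genes taken out and without the libraries that stood apart (-0.10 to 0.11), and Nqo1 was -0.11, -0.046, -0.070, -0.20 and -0.11 in that order and -0.083 with the adipocyte term (-0.10 to 0.14). Scaling moved the median of all genes over time on HFD from 0.09 to -0.06 (quantile) and -0.13 (contaminant genes taken out), and the share of calls that were higher from 69.8% to 40.8% (quantile); for diet at 20 weeks that share went from 65.1% to 47.1% (quantile). The causes were not tested. TPM keeps no depth, so a listed 0 gives no upper limit.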
